A study of Mus musculus with 135 samples.

Results

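H3K4me3 peaks of mouse embryonic stem cells at which the recombinant inbred strains BXD75 and BXD87 both stood above, or both stood below, their founder strains C57BL/6J (B6) and DBA/2J (D2) were examined. A peak belonged to this set when the fitted mean of each BXD strain was higher than that of each founder, or lower than that of each. Of 67192 stem cell peaks, 16791 (25.0%) met the rule, 7958 (11.8%) above both founders and 8833 (13.1%) below both. These shares describe strain means alone, before any test, and the tests that follow ran over all 67192 peaks. The study measured H3K4me3 by ChIP-seq on MNase-digested chromatin in male germ cells, hepatocytes, cardiomyocytes and stem cells of these strains and of a wider BXD panel, in 135 samples including inputs, in order to map loci that act on the mark.

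The stem cell groups were 5 lines of BXD75 (A, F, N, Q and Y), 5 lines of BXD87 (C, I, K, M and X), 3 lines of B6 (139, 146 and 49) and 3 lines of D2 (173, 203 and 216), all labelled embryonic day 3.5, with no treatment named, and immunoprecipitated with 1 antibody lot. B6 line 49 and D2 line 203 had 3 libraries each, which were summed, so that 20 libraries gave 16 lines. Each BXD strain is 1 inbred genotype, so its 5 lines repeat that genotype, and a comparison of 2 BXD strains with 2 founders rests on 4 genotypes. The labels do not give the sex of the lines, and p-values measure the spread between derived lines.

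H3K4me3, trimethylation of lysine 4 of histone H3, is deposited by the SET1 and MLL complexes and marks active and poised promoters, and at lower levels some enhancers. A recombinant inbred strain is a fixed mosaic of its founders: at each locus it carries the allele of one founder or the other. Its genome as a whole combines regulators from both, and it can also hold mutations that arose after the strain was founded. A level outside the range of both parents is called transgressive.

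In units of 1e6 reads in peaks, depth was 16.2 to 20.2 in BXD75 lines, 15.6 to 20.1 in BXD87 lines, 17 to 53.8 in B6 lines and 13.8 to 55.3 in D2 lines. Of 10 naive pluripotency markers 7 had a promoter peak, and Pou5f1, Nanog and Tdgf1 did not. The summed level of the 7 was 1240 to 1460 CPM (reads of a peak per 1e6 reads, after scaling) in BXD lines and 1170 to 1490 CPM in founder lines. Promoter levels of fibroblast feeder markers (6 of 10 with a peak) were 84.3 to 133 CPM in BXD lines and 86.3 to 118 CPM in founder lines, those of primitive endoderm (7 of 7) 138 to 183 and 141 to 176 CPM, and those of trophoblast (7 of 7) 275 to 317 and 253 to 302 CPM. The ranges overlapped for every marker list. Medians in BXD and founder lines were 96.5 and 114 CPM for feeder markers and 1330 and 1280 CPM for naive pluripotency. They were 158 and 156 CPM for primitive endoderm and 301 and 289 CPM for trophoblast. The part of other cells in the results was not tested. BXD75-N and BXD75-Y were closer to each other than other lines of 1 strain, with a chi-square per degree of freedom of 1.14 over peaks, against 2.06 or more for every other pair of lines of 1 strain. Counted as 1 line, they left 5 peaks in the joint test described next.

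The evidence is given at several levels of strictness. In the joint test a peak was called when all 4 differences (each BXD strain minus each founder) had 1 sign and the largest of their 4 p-values, Benjamini-Hochberg adjusted over all peaks, was under 0.05 in edgeR's quasi-likelihood test. It called 6 peaks (0.00893%), 3 above and 3 below the founders (0.00446% each). When each of the 4 comparisons was adjusted on its own and all 4 had to pass with 1 sign, 190 peaks (0.283%) were called, 135 above (0.201%) and 55 below (0.0819%), and all 6 were among them. The mean of both BXD strains against the mean of both founders was called at 7175 peaks (10.7%), and at 4098 of these (6.10%) the 4 strain means also lay in transgressive order, 2264 above (3.37%) and 1834 below (2.73%). Which direction had more calls depended on the processing: scaled by total reads in peaks, 1826 were above and 2014 below, and with every library as a replicate 3719 and 3728. In 266 peaks (0.396%) the CPM of all 10 BXD lines lay beyond that of all 6 founder lines, 171 above (0.254%) and 95 below (0.141%). For comparison, B6 and D2 differed at 20566 peaks (30.6%), and BXD75 and BXD87 at 14628 peaks (21.8%).

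Of the 190 peaks, 129 (67.9%) also had all 10 BXD lines apart from all 6 founder lines, which is 48.5% of the 266. In 139 of the 190 the founders were not called different, and in 51 they were, 29 with B6 higher and 22 with D2 higher. At peaks above the founders, the BXD strains then stood above the higher founder, by a median of 0.60 on the log2 scale in 36 such peaks and by the same median in the 99 others. At peaks below, the median margin was 0.78 in 15 and 0.65 in 40. BXD75 and BXD87 themselves were called different at 16 of the 190. The margin to the nearer founder over all 190 was between 0.24 and 2.37, with a median of 0.61, and exceeded 1 at 12.

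**Figure D1:**
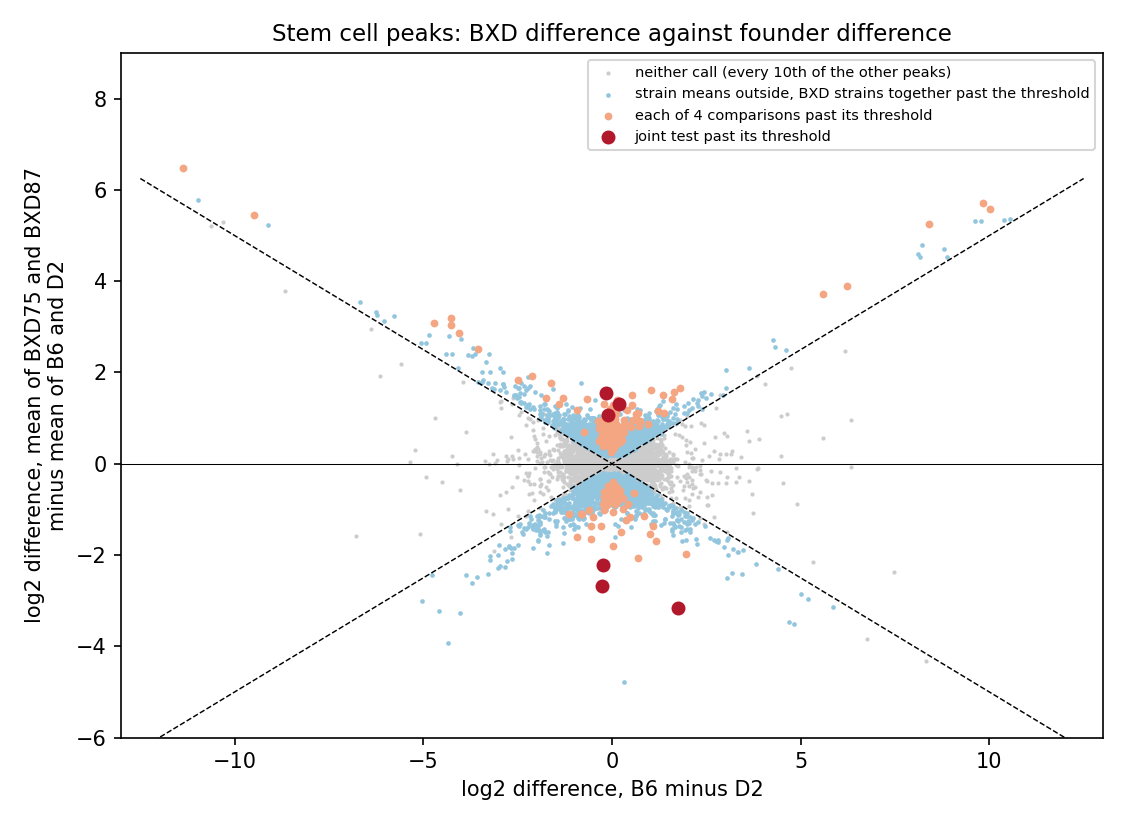
Stem cell peaks by the log2 difference B6 minus D2 (x axis) and the log2 difference of the mean of BXD75 and BXD87 minus the mean of B6 and D2 (y axis); the dashed lines mark where the BXD mean equals 1 of the founders. The 6 peaks of the joint test (dark red) lie outside the dashed lines between 1.07 and 1.56 above and between -2.22 and -3.17 below, and the 190 peaks (orange) include points far out along the upper arms, where 1 founder has few or no reads. Of the peaks with neither call (grey) every 10th is drawn.

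The 6 jointly called peaks are shown by the central 200 bases of their mm10 interval on the plus strand, because they are the peaks that passed the strictest of the tests. Letters are those of the reference genome, which is B6, from RefSeq's GRCm38.p6, and capitals mark CG dinucleotides, the sites of DNA methylation.
Peak within 1700123O12Rik (above), chr4:10749937-10750136: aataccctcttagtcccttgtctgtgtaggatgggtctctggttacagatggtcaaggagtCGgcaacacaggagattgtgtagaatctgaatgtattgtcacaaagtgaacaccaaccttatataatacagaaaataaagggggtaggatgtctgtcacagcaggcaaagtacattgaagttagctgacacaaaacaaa
Peak within C230088H06Rik (above), chr4:147401783-147401982: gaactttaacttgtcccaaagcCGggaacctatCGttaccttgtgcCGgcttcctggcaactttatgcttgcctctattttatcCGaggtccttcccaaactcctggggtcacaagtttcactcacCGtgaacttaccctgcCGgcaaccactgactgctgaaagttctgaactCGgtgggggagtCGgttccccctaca
Peak near 1700128I11Rik (above), chr14:48357246-48357445: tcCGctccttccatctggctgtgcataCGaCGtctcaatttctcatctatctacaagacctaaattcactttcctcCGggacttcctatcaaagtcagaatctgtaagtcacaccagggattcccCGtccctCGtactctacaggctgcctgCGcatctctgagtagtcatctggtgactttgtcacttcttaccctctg
Peak within Gm20033 (below), chr5:64738840-64739039: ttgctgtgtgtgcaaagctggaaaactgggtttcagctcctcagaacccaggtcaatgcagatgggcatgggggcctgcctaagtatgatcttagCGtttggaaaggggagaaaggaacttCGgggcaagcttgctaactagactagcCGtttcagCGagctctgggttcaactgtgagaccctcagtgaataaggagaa
Peak within Pkd1l2 (below), chr8:117017269-117017468: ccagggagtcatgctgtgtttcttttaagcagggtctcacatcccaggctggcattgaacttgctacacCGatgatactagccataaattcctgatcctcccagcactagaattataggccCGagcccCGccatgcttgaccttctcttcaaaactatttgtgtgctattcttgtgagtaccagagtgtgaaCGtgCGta
Peak near Gm12202 (below), chr11:51125756-51125955: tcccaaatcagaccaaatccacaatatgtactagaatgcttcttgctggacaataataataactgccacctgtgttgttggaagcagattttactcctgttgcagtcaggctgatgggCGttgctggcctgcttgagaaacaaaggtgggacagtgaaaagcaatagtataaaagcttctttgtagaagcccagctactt

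The windows held 1, 8 and 7 CG dinucleotides in the 3 peaks above the founders and 4, 5 and 1 in the 3 peaks below, against a median of 4 over equal windows of all 67192 peaks. None of them held the GC box GGGCGG on either strand, which 12.1% of all windows hold. No jointly called peak lay within 1 kb of an annotated start, while 18468 of all peaks (27.5%) did. Repeat-masked bases made up 51.8%, 78.6% and 6.42% of the 3 peaks above the founders and 28.1%, 23% and 71.2% of the 3 below, against a median of 18% over all peaks.

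The first of the peaks above the founders, chr4:10748653-10751420, lies in an intron of the long noncoding RNA gene 1700123O12Rik. Its level was 23.3, 34.2, 31.4, 28.8 and 33.9 CPM in BXD75 lines and 27.5, 27.4, 26.7, 22.6 and 27.5 CPM in BXD87 lines, against 11.8, 11.8 and 13 CPM in B6 lines and 9.14, 13.8 and 8.67 CPM in D2 lines. Every BXD line was higher than every founder line, and the founders differed by 0.18 (adjusted p = 0.43). The mean of the BXD strains minus that of the founders was 1.30 ± 0.10 (SE) on the log2 scale, with a joint adjusted p of 0.0049 in edgeR. Without B6 line 139 or without B6 line 146 the joint call was lost, the larger p being 0.063. A second peak of the same gene, chr4:10752537-10753884, found on the second genome alone, averaged 5.86 ± 1 CPM in BXD75, 7.51 ± 0.83 CPM in BXD87, 1.13 ± 0.083 CPM in B6 and 3.3 ± 0.91 CPM in D2 (SD, n = 5, 5, 3 and 3). It was called in each of the 4 comparisons, and there the founders differed too, by -1.61 (B6 minus D2, adjusted p = 1.5e-05).

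The second, chr4:147401478-147402287, was found on the second genome alone and lies in introns of C230088H06Rik and Gm26624, 40167 bases from the start of Zfp978. Its level was 10.5 to 13 CPM in BXD75 lines and 10.8 to 13.2 CPM in BXD87 lines, against 5.14 to 5.63 CPM in B6 lines and 3.77 to 7.12 CPM in D2 lines. The BXD strains exceeded the founders by 1.07 ± 0.11 on the log2 scale (joint adjusted p = 0.039 in edgeR), which made it the peak just inside the threshold. The call was lost on leaving out any 1 of 13 of the 16 lines, with BXD75-N and BXD75-Y as 1 line and with scaling by total reads, up to a joint adjusted p of 0.13, while the log2 difference stayed between 0.97 and 1.17.

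The third, chr14:48356816-48357874, is intergenic, 4741 bases from the start of 1700128I11Rik. BXD75 lines had 12.3, 13.4, 13.2, 15.1 and 12.4 CPM and BXD87 lines 6.29, 6.93, 6.81, 6.26 and 7.39 CPM, against 2.98, 2.89 and 3.15 CPM in B6 lines and 3.49, 3.02 and 3.84 CPM in D2 lines. The levels fell into 3 steps that did not overlap: BXD75 above BXD87 (0.98 on the log2 scale, adjusted p = 7.1e-07), and BXD87 above both founders, which did not pass the threshold against each other (adjusted p = 0.64). The log2 difference was 1.56 ± 0.10 with a joint adjusted p of 0.0071, and 0.11 without D2 line 203.

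Of the peaks below the founders, chr5:64737172-64740707 was the most stable. It lies in an intron of Gm20033, and the nearest coding start, that of Klf3, a zinc finger factor, is 62681 bases away. Its level was 3.73, 5.35, 5.44, 3.89 and 5.68 CPM in BXD75 lines and 3.35, 4.01, 5.32, 4.17 and 4.7 CPM in BXD87 lines, against 20.3, 16.5 and 21.4 CPM in B6 lines and 25, 22.2 and 22.6 CPM in D2 lines. The groups were far apart, the founders did not pass the threshold against each other (adjusted p = 0.26), and neither did the BXD strains (adjusted p = 0.51). The log2 difference was -2.22 ± 0.11 with a joint adjusted p of 1e-06 in edgeR, and in all 28 alternative settings the joint call held, with a largest p of 3.2e-05.

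A peak of 7972 bases within Pkd1l2, a polycystin family gene, at chr8:117013382-117021354, had 6.21, 2.04, 2.41, 5.15 and 1.89 CPM in BXD75 lines and 4.08, 8.7, 3.73, 6.52 and 2.91 CPM in BXD87 lines, against 63.6, 80.8 and 66.1 CPM in B6 lines and 23.8, 19.7 and 19.5 CPM in D2 lines. Here the founders stood well apart (B6 minus D2 1.74 on the log2 scale, adjusted p = 0.00017), yet both BXD strains lay below the lower founder by at least 2.04 on the log2 scale. The log2 difference was -3.17 ± 0.21 (joint adjusted p = 0.0089). Without BXD87-C the joint p was 0.05 and the call was lost.

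The third peak below the founders, chr11:51124947-51126763, is intergenic, 11747 bases from the start of Gm12202 and 64825 bases from that of Zfp354a, a zinc finger gene. Its level was 0.386 to 0.994 CPM in BXD75 lines and 0.348 to 1.56 CPM in BXD87 lines, against 3.82 to 4.87 CPM in B6 lines and 3.2 to 6.33 CPM in D2 lines. Its log2 difference came to -2.68 ± 0.22 (joint adjusted p = 0.0049), and the joint p was 0.062 without B6 line 49. The peak just outside the threshold, at the start of Gm12243 on the same chromosome (chr11:57573437-57574659), had a joint adjusted p of 0.056, with means of 0.695 ± 0.14 CPM in BXD75, 1.06 ± 0.22 CPM in BXD87, 4.54 ± 0.8 CPM in B6 and 2.97 ± 1.1 CPM in D2.

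**Figure D2:**
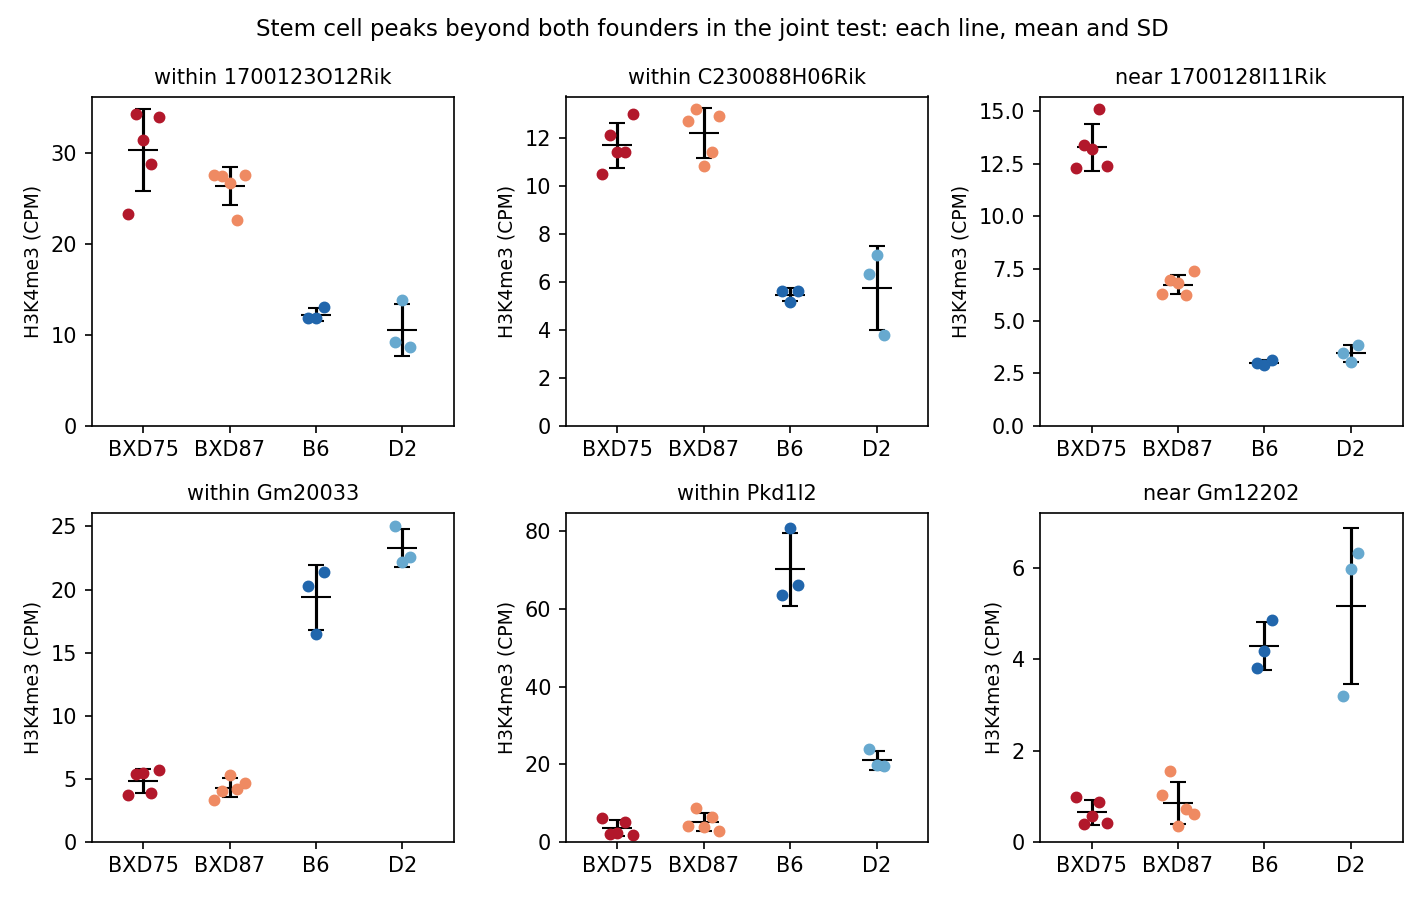
H3K4me3 level (CPM, y axis from 0) of the 6 jointly called stem cell peaks in each line (points), with the mean and SD of each strain (bars). In every panel the 10 BXD lines lie on 1 side of the 6 founder lines, and near 1700128I11Rik BXD75 (12.3 to 15.1 CPM) also lies above BXD87 (6.26 to 7.39 CPM).

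Promoters made up 13.7% of the 190 peaks called in each of 4 comparisons (26 of 190), against 27.5% of all peaks. Of all 18468 promoter peaks, 0.141% were called in this way and 0 in the joint test (60 above and 37 below at an unadjusted joint p under 0.05 in edgeR, and 4 in DESeq2 after adjustment). Of the 26, 18 were above and 8 below the founders, and most start a noncoding or pseudogene transcript. Named coding promoters were taken from the peaks whose 10 BXD lines stood apart from the 6 founder lines and that passed in the comparison of both BXD strains with both founders, ordered by the margin to the nearer founder. This rule was chosen after values were seen, so the tests given with these genes describe them.

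Among coding genes the promoter of Cntfr, which encodes the ligand-binding alpha subunit of the ciliary neurotrophic factor receptor, had the largest margin above the founders (chr4:41693735-41697644, found on the second genome alone). It had 40.6, 33.7, 25.2, 31.4 and 28 CPM in BXD75 lines and 28, 30.2, 28.2, 26.7 and 26 CPM in BXD87 lines, against 0.899, 1.3 and 0.907 CPM in B6 lines and 21.4, 14 and 14.8 CPM in D2 lines. B6 was close to empty, and every BXD line stood above every D2 line, with a margin of 0.74 over D2 on the log2 scale. The log2 difference from both founders was 2.86 ± 0.13 (adjusted p = 2.8e-12 in edgeR), the joint adjusted p was 0.25, and each of the 4 comparisons passed on its own. A second peak in the gene, chr4:41682872-41685070, was ordered in the same way, with 15.6 ± 2.6 CPM in BXD75, 12.7 ± 0.96 CPM in BXD87, 0.804 ± 0.33 CPM in B6 and 8.45 ± 2.1 CPM in D2.

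Dgkh encodes diacylglycerol kinase eta, which turns the second messenger diacylglycerol into phosphatidic acid. Its promoter peak (chr14:78730979-78735102, found on the reference genome alone) had 57.9, 59.8, 56.1, 60.8 and 56.4 CPM in BXD75 lines and 62.3, 68.7, 60.4, 61 and 63.8 CPM in BXD87 lines, against 29.7, 29.8 and 27 CPM in B6 lines and 48.9, 44.6 and 52.4 CPM in D2 lines. B6 was the lowest group, D2 stood between, and the BXD lines were highest without overlap. The log2 difference was 0.70 ± 0.06 (adjusted p = 2.2e-08 in edgeR), and the margin over D2 was 0.26.

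Haus4, a subunit of the augmin complex that nucleates microtubules within the mitotic spindle, was the coding promoter below the founders that passed all 4 comparisons (chr14:54551557-54555851). It had 28.2, 21.9, 21.8, 27.9 and 21.8 CPM in BXD75 lines and 22.8, 27.8, 22.2, 23.6 and 22 CPM in BXD87 lines, against 43.7, 46.7 and 47.7 CPM in B6 lines and 28.6, 31.8 and 31.5 CPM in D2 lines. The BXD lines lay below all founder lines, but narrowly at D2: the highest BXD line had 28.2 CPM and the lowest D2 line 28.6 CPM. The log2 difference was -0.65 ± 0.07 (adjusted p = 3.4e-06 in edgeR).

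The promoters of these genes are shown because both BXD strains shifted there with founders of unequal level. They are RefSeq's 250 bases before to 50 after a start on the minus strand of GRCm38.p6, given 5′ to 3′ on that strand with CG dinucleotides in capitals.
Cntfr promoter, chr4:41695988-41696287: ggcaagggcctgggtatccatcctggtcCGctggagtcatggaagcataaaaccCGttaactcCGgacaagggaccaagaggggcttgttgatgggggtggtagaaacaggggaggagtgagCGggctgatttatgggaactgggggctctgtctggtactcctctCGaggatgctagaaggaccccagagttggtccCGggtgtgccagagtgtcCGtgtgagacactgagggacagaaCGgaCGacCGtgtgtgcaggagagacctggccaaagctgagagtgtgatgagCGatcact
Dgkh promoter, chr14:78732680-78732979: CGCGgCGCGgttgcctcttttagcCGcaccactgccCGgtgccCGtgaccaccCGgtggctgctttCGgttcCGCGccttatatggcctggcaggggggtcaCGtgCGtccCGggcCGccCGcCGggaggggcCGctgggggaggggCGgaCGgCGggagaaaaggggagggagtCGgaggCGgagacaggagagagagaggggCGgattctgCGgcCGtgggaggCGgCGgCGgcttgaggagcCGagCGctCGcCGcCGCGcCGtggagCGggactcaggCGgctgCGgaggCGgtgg
Haus4 promoter, chr14:54554312-54554611: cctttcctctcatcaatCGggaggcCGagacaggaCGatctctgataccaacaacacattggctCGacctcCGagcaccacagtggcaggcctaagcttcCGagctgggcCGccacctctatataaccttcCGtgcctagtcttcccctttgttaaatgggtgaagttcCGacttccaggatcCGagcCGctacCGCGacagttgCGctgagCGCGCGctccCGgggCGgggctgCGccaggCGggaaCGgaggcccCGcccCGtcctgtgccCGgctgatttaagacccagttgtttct

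They differ in composition: the Cntfr window held 11 CG dinucleotides, that of Haus4 25 and that of Dgkh 40, and 41.7%, 18.6% and 3.94% of 32619 RefSeq promoters held at least as many. GGGCGG on either strand was present in the Dgkh and Haus4 windows and in 35.9% of all promoters, and these letters were not in the Cntfr window.

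At 3 further coding promoters each of the 4 comparisons passed and the founders did not pass the threshold against each other. Tmem274, a transmembrane protein gene, had 39.2, 41.6, 42.2, 37.6 and 41.9 CPM in BXD75 lines and 37.9, 41.8, 43, 42.6 and 40 CPM in BXD87 lines, against 32.5, 26.7 and 25.6 CPM in B6 lines and 26, 25 and 24.3 CPM in D2 lines. Its BXD lines were all higher than its founder lines, with a log2 difference of 0.62 ± 0.06 and a joint adjusted p of 0.058. Ehhadh, the bifunctional enzyme of peroxisomal beta-oxidation, averaged 26.9 ± 2.3 and 26.6 ± 0.77 CPM in BXD75 and BXD87, against 20.9 ± 0.54 CPM in B6 and 18.1 ± 2.4 CPM in D2 (0.45 ± 0.07, adjusted p = 9.6e-05). Ccdc84 stood 0.45 ± 0.06 higher in the BXD strains. Phactr2, which binds actin and protein phosphatase 1, stood 0.50 ± 0.07 higher, with B6 below D2 by 0.35 (adjusted p = 0.013). Bex6 (0.42 ± 0.08) and Nrros, which acts in TGF-beta activation (2.55 ± 0.11), completed the promoters above the founders without passing all 4 comparisons. At Nrros D2 lines had 0.452 to 0.492 CPM and the margin of the BXD strains over B6 was 0.24.

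Below the founders the remaining coding promoters had lower levels and did not pass all 4 comparisons. C1qtnf2, a secreted C1q/TNF-related protein, averaged 4.77 ± 1.1 and 5.13 ± 0.45 CPM in BXD75 and BXD87, against 8.89 ± 0.99 CPM in B6 and 7.13 ± 0.1 CPM in D2 (-0.69 ± 0.11, adjusted p = 0.00024 in edgeR). The others were the cell adhesion gene Cntn1 (-0.70 ± 0.16), the glycine receptor subunit Glra3 (-0.59 ± 0.11) and Resp18 (-0.44 ± 0.11). Frmpd1 (-0.45 ± 0.11), Rgs3, which speeds GTP hydrolysis by G proteins (-0.50 ± 0.14), and Frmd4a (-0.41 ± 0.10) completed the 8. That lines did not overlap between BXD strains and founders was a condition for naming these 7 genes. Their adjusted p-values in edgeR ran up to 0.023. Rgs3 lost its call without B6 line 146 or B6 line 49 (adjusted p = 0.051 and 0.061), as did Cntn1 with level-dependent scaling (0.064).

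**Figure D3:**
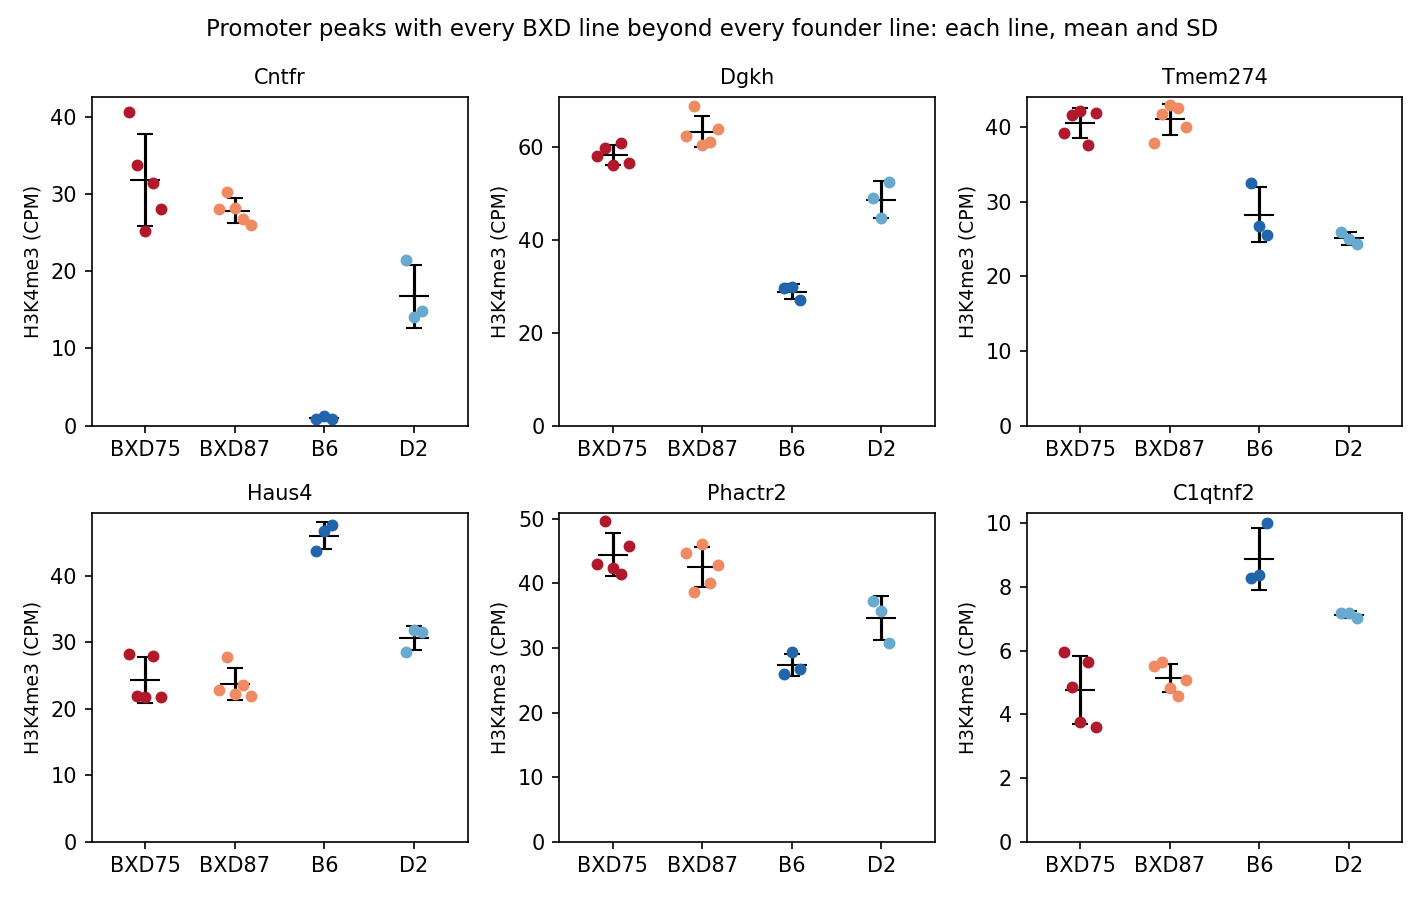
H3K4me3 level (CPM, y axis from 0) at 6 promoter peaks in each stem cell line (points), with the mean and SD of each strain (bars). At Cntfr and Dgkh B6 is lowest and the BXD lines stand above D2. At Tmem274 and Phactr2 all BXD lines are above all founder lines, and at Haus4 and C1qtnf2 all are below. The peaks were chosen so that BXD and founder lines do not overlap.

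Noncoding starts stood at the head of the 26 promoter peaks. A start of Zim2, an imprinted gene of the Peg3 domain (chr7:6661322-6663041), averaged 10.1 ± 1.8 CPM in BXD75 and 10.6 ± 1.2 CPM in BXD87, against 5.39 ± 0.57 CPM in B6 and 4.79 ± 2.8 CPM in D2, a log2 difference of 0.98 ± 0.18 (adjusted p = 0.00082 in edgeR). Its line values did not overlap between BXD strains and founders. The start of Tsix, the antisense RNA that opposes Xist on the X chromosome (chrX:103430663-103434670), averaged 34.9 ± 3.3 and 35.5 ± 0.86 CPM in BXD75 and BXD87, against 26.1 ± 2.8 CPM in B6 and 27.6 ± 5.1 CPM in D2 (0.38 ± 0.08, adjusted p = 0.0021). Tsix lines overlapped between the groups. Its counts cannot be assigned to a strand, since ChIP-seq reads do not mark one. Both genes were singled out after their values were seen.

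At 5 of the 190 peaks 1 founder had no read in any line and both BXD strains stood above the other founder. The peak 5020 bases from an Rnu6 start on chromosome 17 (chr17:13437159-13439402, found on the second genome alone) had no read in B6. It had 19.9 to 23.1 CPM in BXD75 lines and 26.7 to 30.4 CPM in BXD87 lines, against 13.8 to 16.5 CPM in D2 lines, and a joint adjusted p of 0.077. A count of 0 over the 3 B6 lines allows up to 0.0338 CPM (3 reads), so BXD75 was at least 653-fold and BXD87 at least 862-fold higher than B6, while they stood 0.58 and 0.98 above D2 on the log2 scale. A peak in the pseudogene Gm2260, also without a read in B6, averaged 6.09 ± 0.9 and 6.89 ± 1.1 CPM in BXD75 and BXD87, against 3.98 ± 0.65 CPM in D2. The others had no read in D2. The one near Selenok-ps6 averaged 4.1 ± 0.71 and 3.73 ± 0.63 CPM in BXD75 and BXD87, against 1.78 ± 0.66 CPM in B6. A pair of peaks whose nearest start is that of Gm5165 averaged 7.95 ± 0.86 and 9.16 ± 0.95 CPM against 5.67 ± 1 CPM in B6, and 7.93 ± 1.5 and 9.77 ± 1.2 CPM against 5.02 ± 1.3 CPM in B6. Presence or absence of reads thus followed 1 founder, and the level exceeded it. All 5 peaks were found on 1 genome alone. Whether reads of the founder without counts can be mapped at these peaks was not tested.

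Along the genome, in 22 windows of 1 Mb at least 2 of the 190 peaks lay together, and the fullest was chr16:36000001-37000000, with 4 of its 37 peaks, all above the founders. Chromosome 16 had the highest share, 0.635% of 2362 peaks (14 above and 1 below), and chromosome 19 the lowest, 0.0994% of 2013 peaks. Whether these counts differ from an even spread over peaks was not tested. On chromosome 17 a window at 13000001-14000000 held 3 of 17 peaks, among them the one near Rnu6, and on chromosome 7 a window at 6000001-7000000 held 3 of 52, among them the Zim2 start. Median levels of whole chromosomes in single lines, against the mean of the strains, departed from the line's own centre by 0.1 or more in 5 cases: chromosome 8 in BXD87-K (0.21), chromosome 11 in D2-203 (0.14), and chromosome X in B6-49 (0.12), BXD87-M (-0.11) and D2-173 (-0.17). With each line scaled within each chromosome, 8 peaks were called jointly and 188 in each of 4 comparisons, 171 of them shared with the 190.

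Peaks found on 1 genome alone made up 26.8% of the 190 peaks and 28.4% of all peaks, so the share was near the background. In the larger set of 4098 peaks it differed by direction, with 40.1% of the 1834 below and 24.4% of the 2264 above. At high GC content calls were fewer: 0.0893% of the 10% of peaks with the highest GC content were called in each of 4 comparisons, against 0.283% of all peaks. By level, the lowest 10% of peaks gave 3 above and 12 below, and the 10% just above the median gave 21 above and 7 below. The median difference of both BXD strains from both founders was -0.17 in the lowest 10% and between -0.07 and 0.04 in the other bins, so the excess of calls below at low levels moved with a shift of the whole bin. With level-dependent scaling 182 peaks were called in each of 4 comparisons, and 151 of them were among the 190. The part of the shift in single calls was not tested.

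Gene lists were described by their promoter peaks. No member of the 26 lists with a promoter peak was called in the joint test or in each of 4 comparisons, over 431 promoter peaks (0 at an unadjusted joint p under 0.05 in edgeR, and 0 in DESeq2). Of all 18468 promoter peaks, 0 were called jointly, 0.141% in each of 4 comparisons and 0.525% at that unadjusted p. At such shares 431 peaks would hold few or none. The comparison of both BXD strains with both founders called 702 of all promoter peaks above and 412 below, 6.03% in all, with a median log2 difference of -0.01 over all 18468. Most lists were near these values. Medians were -0.02 for 22 replication and cell cycle genes, -0.03 for 19 Polycomb genes, -0.03 for 14 DNA methylation genes, -0.02 for 23 ribosomal protein genes and 0 for 17 housekeeping genes. The 2-cell-like list had the lowest median, -0.40 over 3 promoters, all of them called (2 below and 1, Zfp809, above). Next came the interferon response (-0.14, 18 genes), fibroblast feeders (-0.13, 13 genes) and the MAPK response (-0.10, 21 genes), without a call in edgeR after adjustment. Of the 13 feeder promoters, 6 had strain means below both founders and 0 above, against 2864 and 1937 of all 18468 promoter peaks. The lists were chosen with earlier results of these data known.

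Of the pluripotency genes, 1 of 25 naive promoters was called, that of Lin28a, an RNA-binding protein that blocks let-7 maturation. It averaged 27.1 ± 6.2 and 26.5 ± 3.8 CPM in BXD75 and BXD87, against 43.6 ± 1.5 CPM in B6 and 35.8 ± 13 CPM in D2, a log2 difference of -0.55 ± 0.13 (adjusted p = 0.0087 in edgeR). Among 14 formative and primed genes Otx2, a homeobox factor of the epiblast, was called above, at 80.7 ± 21 and 92.3 ± 7.5 CPM against 59.4 ± 9 CPM in B6 and 73.4 ± 16 CPM in D2 (0.38 ± 0.12, adjusted p = 0.049). Gsc, an organizer homeobox gene, was the 1 of 24 germ layer regulators that was called (0.27 ± 0.08, adjusted p = 0.041). In all 3 the strain means lay in transgressive order, but lines of the BXD strains and founders overlapped.

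Metabolic and silencing genes gave a few further calls in transgressive order. Slc7a11, the cystine carrier of the glutathione pathway, averaged 10.1 ± 2.1 and 14.5 ± 1.9 CPM in BXD75 and BXD87, against 8.83 ± 0.47 CPM in B6 and 8.87 ± 0.73 CPM in D2 (0.44 ± 0.11, adjusted p = 0.0097 in edgeR). Psat1, an enzyme of serine synthesis, stood 0.25 ± 0.06 higher in the BXD strains (adjusted p = 0.0066), and these were the 2 called among 19 genes of the amino acid and endoplasmic reticulum stress list. Zfp809, a KRAB zinc finger protein that silences retroviral elements, averaged 88.6 ± 2.8 and 85.4 ± 7.2 CPM in BXD75 and BXD87, against 65.8 ± 2.8 CPM in B6 and 77.6 ± 8.4 CPM in D2 (0.28 ± 0.06, adjusted p = 0.0038). Dpep3, a germline gene, averaged 3.67 ± 1.3 and 2.91 ± 1.2 CPM, against 2.09 ± 0.083 CPM in B6 and 0.805 ± 0.37 CPM in D2 (1.26 ± 0.24, adjusted p = 0.0012).

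Other calls came without transgressive order. Single ones were Dpy30, a subunit of the H3K4 methyltransferase complexes (0.20 ± 0.05, 1 of 19 writers and erasers of the mark), the glycolytic enzyme gene Pfkp (0.27 ± 0.06) and the hypoxia target Ankrd37 (0.26 ± 0.08), the cholesterol synthesis gene Hmgcs1 (0.36 ± 0.08), the heat shock gene Hspa1a (0.36 ± 0.11) and the germline gene Rpl10l (0.49 ± 0.15). Of 15 histocompatibility promoters 4 were called above, but at H2-T23 BXD75 (1.64 ± 0.36 CPM) lay beside B6 (0.907 ± 0.14 CPM) and BXD87 (5.75 ± 0.74 CPM) beside D2 (4.23 ± 0.55 CPM). H2-Eb1 had the same order, with 41 ± 5.6 and 91.2 ± 13 CPM in BXD75 and BXD87, against 27.9 ± 1.6 CPM in B6 and 65.1 ± 17 CPM in D2. H2-D1 was ordered otherwise, with 15.2 ± 2.2 and 13.5 ± 1.5 CPM in BXD75 and BXD87, against 14 ± 1.2 CPM in B6 and 6.5 ± 1.1 CPM in D2. At H2-Ab1 the BXD strains had 26.6 ± 1.6 and 31.3 ± 1.7 CPM, against 21.4 ± 1.6 CPM in B6 and 26.5 ± 4.8 CPM in D2. Of 31 imprinted genes 6 were called above, over 4 promoter peaks, with a list median of 0.07: Meg3 (0.40 ± 0.08), the shared promoter of Peg10 and Sgce (0.24 ± 0.07), that of Peg3 and Usp29 (0.20 ± 0.06) and Impact (0.19 ± 0.06). Of these only the Peg10 and Sgce promoter had strain means in transgressive order. The 2-cell-stage genes Obox6 and Crxos were called below, and their BXD strains stood on opposite sides of the founders. Obox6 averaged 34.7 ± 1.3 and 2.46 ± 0.47 CPM in BXD75 and BXD87, against 28 ± 1.6 CPM in B6 and 7.73 ± 0.54 CPM in D2. Crxos averaged 54.7 ± 3.3 and 4.93 ± 0.22 CPM, against 15 ± 2.2 CPM in B6 and 31.1 ± 3.4 CPM in D2.

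**Figure D4:**
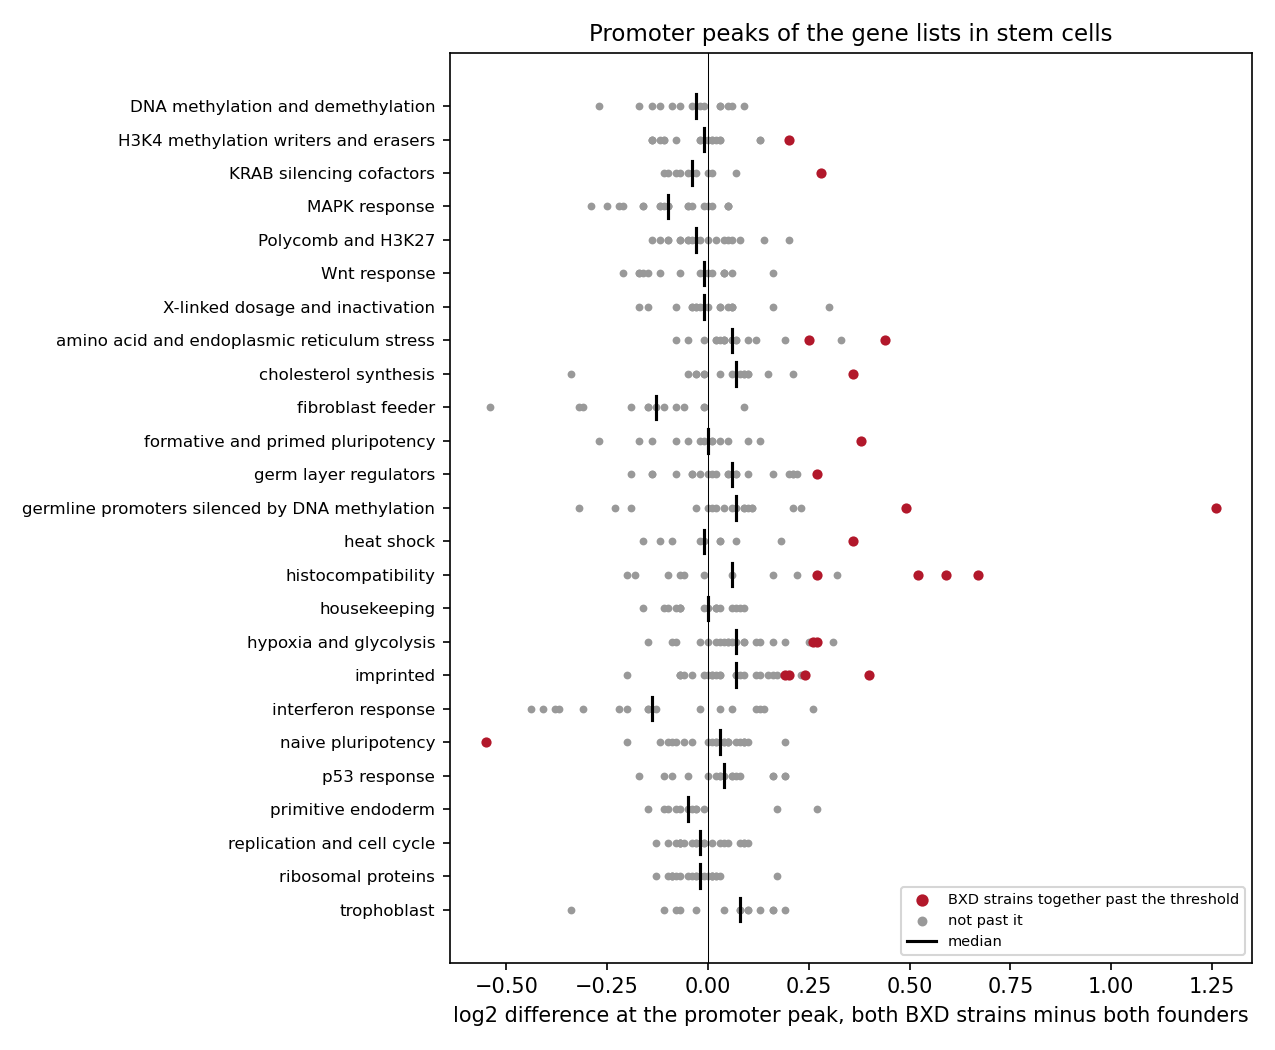
Log2 difference of both BXD strains minus both founders (x axis) at each promoter peak of the gene lists, with calls of that comparison in red and the list median as a bar. The 2-cell-like list, with 3 promoters and a median of -0.40, is not drawn; the other medians lie between -0.14 and 0.08, and the histocompatibility and imprinted lists hold 4 called peaks each.

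Hepatocytes and cardiomyocytes of 8-week females (3 libraries of each strain) and male germ cells at 14 days post-partum (1 library of each BXD strain, 3 of each founder) gave libraries that the rule did not use. In hepatocytes the joint test called 8748 of 29137 peaks (30.0%), 3771 above (12.9%) and 4977 below (17.1%). In cardiomyocytes it called 0 of 23809 in edgeR (53 above and 88 below at an unadjusted joint p under 0.05). Each of 4 comparisons passed at 13 cardiomyocyte peaks (0.0546%), 3 above (0.0126%) and 10 below (0.0420%). In germ cells both BXD libraries lay beyond all 6 founder libraries at 12.3% of 67114 peaks, 4.41% above and 7.89% below, without a test. Germ cell depth in the same units was 3.45 in BXD75 and 7.14 in BXD87, against 6.93 to 16.4 in B6 and 8.73 to 30.3 in D2. The hepatocyte calls moved with level: the median difference was 0.32 to 0.51 in the 5 lower of 10 bins by level and -0.32 to -0.41 in the 3 highest. With level-dependent scaling, an alternative chosen after seeing the data, 1869 hepatocyte peaks were called.

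**Figure D5:**
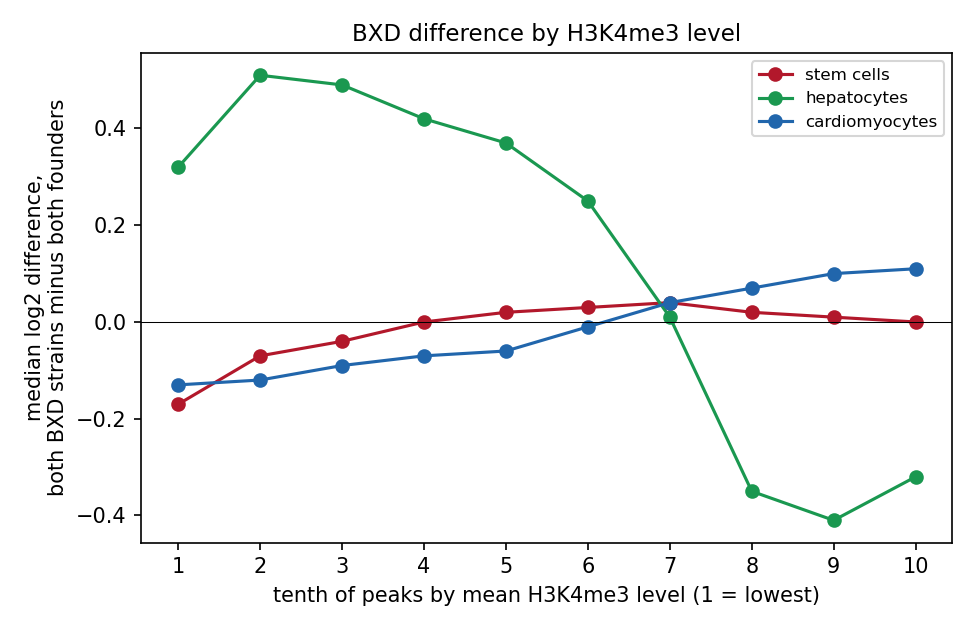
Median log2 difference of both BXD strains minus both founders (y axis) in 10 equal bins of peaks by mean H3K4me3 level (x axis, 1 = lowest) for 3 cell types. Stem cells stay between -0.17 and 0.04 and cardiomyocytes between -0.13 and 0.11, while hepatocytes run between 0.51 and -0.41.

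None of the 6 jointly called stem cell peaks had a hepatocyte or cardiomyocyte peak at 50% reciprocal overlap, and 2 had a germ cell peak, where the BXD libraries did not stand apart. Of the 190, 5 had a hepatocyte peak, of which 1 was called in the same direction by the joint test, and 5 a cardiomyocyte peak, where that test made no call at all. Over all 9738 stem cell peaks with a hepatocyte counterpart, the joint test called 7.72% above and 32.3% below. With any overlap of at least 1 base, 17 of the 190 had a hepatocyte peak, 3 called in the same direction and 4 in the opposite one. In germ cells 60 had a peak, and at 5 of these both BXD libraries lay beyond all founder libraries in the same direction and at 2 in the opposite one. Over all 23723 stem cell peaks with a germ cell counterpart, both BXD libraries lay above the founder libraries at 2.2% and below at 15.3%. Most of the 190 thus had no counterpart in these tables. Of all 67192 stem cell peaks, 9738 had a hepatocyte, 10666 a cardiomyocyte and 23723 a germ cell counterpart. Most peaks of any kind thus also lacked one in each table.

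The promoters named above were chosen after their stem cell values were seen. At Dgkh, Cntfr and Haus4 every BXD library stood outside all founder libraries in 1 or more other cell types. At Dgkh and Cntfr this did not hold in cardiomyocytes. The 1 hepatocyte call in the same direction was that of Dgkh, with 45.6 ± 15 CPM in BXD75 and 46.3 ± 12 CPM in BXD87, against 22.1 ± 0.95 CPM in B6 and 25.3 ± 2.1 CPM in D2 (0.96 ± 0.15, joint adjusted p = 0.0093 in edgeR); in cardiomyocytes the BXD strains (90.8 ± 15 and 72.1 ± 8.2 CPM) lay between B6 (43.8 ± 6.2 CPM) and D2 (123 ± 16 CPM). Cntfr in germ cells had 65.5 CPM in the BXD75 library and 70.5 CPM in the BXD87 library, against a mean of 2.8 CPM in B6 and 40.4 CPM in D2, with no founder library above 43.7 CPM. In cardiomyocytes Cntfr of the BXD strains (69.4 ± 21 and 54.5 ± 7.4 CPM) overlapped that of D2 (54.8 ± 5.4 CPM), with B6 at 5.65 ± 1.4 CPM. Haus4 was below the founders in germ cells, at 53.1 and 42.8 CPM in BXD75 and BXD87, against 61.1 to 77.5 CPM in the founder libraries. In hepatocytes it averaged 37.5 ± 3.7 and 38.2 ± 2.9 CPM in BXD75 and BXD87, against 51.6 ± 1.9 CPM in B6 and 44.2 ± 3 CPM in D2. The difference was -0.34 ± 0.07 (adjusted p = 0.00055 and joint adjusted p = 0.13 in edgeR). Median differences of whole hepatocyte bins by level ran from 0.51 to -0.41, so a shift of that size was common there. Values of Haus4 and Dgkh with level-dependent scaling were not examined. Ehhadh, Phactr2, C1qtnf2, Glra3, Resp18, Bex6 and Frmd4a did not stand apart in germ cells, nor did Ehhadh, Phactr2, C1qtnf2 and Frmd4a in cardiomyocytes. By strain means alone, Frmd4a in cardiomyocytes lay below both founders (-0.6 ± 0.17, adjusted p = 0.029 in edgeR). It averaged 8.06 ± 2.2 and 5.5 ± 0.91 CPM in BXD75 and BXD87, against 8.77 ± 1.8 CPM in B6 and 11.7 ± 1 CPM in D2. The Ehhadh means there lay above both founders (0.16 ± 0.08, adjusted p = 0.17).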

How the data were processed

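H3K4me3 ChIP-seq on MNase-digested chromatin was aligned with BWA 0.5.10 to mm10 after CASAVA 1.8, and peaks were called with MACS 1.4.2, per the submitters' processing notes; which step each tool served is not stated further. The deposited values are whole-number counts of reads per peak, made by the authors; the peaks carry names for those found on both genomes, on the reference alone or on the second genome alone, and no label names the build of that second genome. Coordinates are the authors' mm10 intervals.

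From the counts, the libraries of B6 line 49 and D2 line 203 were summed by line (3 each), since labels name 1 line. Counts were scaled by TMM, filtered by edgeR's filterByExpr and fitted with a mean per strain by edgeR 4.0.16 (quasi-likelihood, robust) in R 4.3.3, over 16 lines and 67192 peaks. Fold changes are BXD minus founder on the log2 scale, and adjusted p-values are Benjamini-Hochberg over all peaks with a threshold of 0.05. CPM values use the same scaling. A promoter peak lies within 1 kb of a GENCODE M21 start. Hepatocytes and cardiomyocytes were fitted alike, each in its own table. Replicate numbers there were not used as pairs in the main fit. On simulated counts the script was checked for recovery of known changes. Alternatives were other scalings, filters, DESeq2 1.42.0 and leaving out each line; level-dependent scaling in the other cell types and counting BXD75-N and BXD75-Y as 1 line were added after the data were seen.

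The members and lists were chosen with earlier results of these data known. Named peaks are those of the joint test. Since these included no promoter, up to 8 coding promoters a direction with all 10 BXD lines beyond all 6 founder lines were added, ordered by margin. Neighbouring peaks, peaks with no read in 1 founder, Zim2 and Tsix were added after values were seen. Germ cells have 1 library of each BXD strain and so no test.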

Additional observations from a re-analysis of the deposited data

Results flagged for a closer look

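The gap of a line to the nearest other line was divided by the range of its group. Of 77 groups of 5 lines examined at the named peaks, 5 held a line where this ratio exceeded Dixon's 95% critical value of 0.71. Chance alone gives about 1 in 20. In BXD87, line M was low at the peak within 1700123O12Rik (22.6 CPM, next 26.7 CPM) and at the Ccdc84 promoter (98.9 CPM, next 109 CPM). Line K was high at Glra3 (3.73 CPM, next 2.74 CPM) and line I at Haus4 (27.8 CPM, next 23.6 CPM). In BXD75, line A was low at the peak near Rnu6 (19.9 CPM, next 22.2 CPM). In each case the line stayed on its strain's side of the founder lines. That was a condition for naming these peaks, except the one near Rnu6.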

How the results depend on the processing

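The joint count of 6 was 15 with scaling within bins of GC content, 20 with every library as a replicate and 18 with DESeq2, and 4 (without B6-146) to 11 (without D2-173) on leaving out 1 line. The count of 190 was 291 with GC bins, 527 with every library, 112 among peaks found on both genomes, and 108 (without B6-146) to 293 (without BXD75-A) on leaving out 1 line; it was 123 without BXD75-N, 112 without B6-49 and 133 with BXD75-N and BXD75-Y as 1 line. The pooled count of 7175 was 13909 with every library, 3754 among peaks found on both genomes and 1028 (449 above, 579 below) with 2 groups and no strain terms, and 4919 to 10169 on leaving out 1 line. Of these, 4098 in transgressive order became 7447 and 2478, and 2840 to 6132. The hepatocyte count of 8748 was 1869 (869 above, 1000 below) with level-dependent scaling, 8414 (2810 above, 5604 below) with RLE scaling, 9488 with a replicate block, and 5947 to 9349 on leaving out 1 library. The cardiomyocyte count of 0 was 0 with the replicate block and 0 to 1 on leaving out 1 library. Replicate numbers were not used as pairs in the main fit. Deviations from the strain mean correlated above 0.1 in 5 of 18 same-numbered hepatocyte pairs (-0.283 to 0.62). In cardiomyocytes 8 of 18 did (-0.737 to 0.656). Between BXD75 and BXD87 hepatocytes the correlations were 0.59, -0.283 and 0.62 for replicates 1, 2 and 3, so shared variation in some pairs remains possible. No named peak reversed under any alternative run. The causes were not tested. A covariate from Y-linked peaks was not run, since the table holds none.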

Other observations

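One peak in an intron of Lpp, a focal adhesion gene, nearest the start of Gm22672 (chr16:24875353-24876494), had no read in any of the 5 BXD75 lines. It was chosen after its values were seen. BXD87 lines had 2.58, 2.85, 1.89, 2.24 and 2.57 CPM, against 3.15, 3.13 and 4.24 CPM in B6 lines and 2.9, 2.79 and 3.01 CPM in D2 lines. Among peaks with at least 10 reads in every line of the other strains, it was the 1 with none in BXD75, against 0 for BXD87, 24 for B6 and 29 for D2.

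Lines A and Q of BXD75 lay together and apart from F, N and Y at several peaks. At Haus4 they had 28.2 and 27.9 CPM, against 21.8 to 21.9 CPM in the others, and at the peak within Pkd1l2 6.21 and 5.15 CPM, against 1.89 to 2.41 CPM. The split also showed over peaks in general. Chi-square per degree of freedom was 2.59 between A and Q and 1.14 to 2.5 among F, N and Y. Between these sets it was 4.08 to 9.01. The fit counted the 5 lines as separate repeats, and the cause of the split was not tested.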
